A study of Homo sapiens with 16 samples.

Results

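The data described here were all the acRIP peaks of the replicate round in UM-UC-3 cells, 27006 of the 28357 peaks in the 4 lists of the series, taken as every row of the control list (10253 peaks) and the NAT10-si list (16753 peaks). UM-UC-3 is an established human bladder cancer cell line, here grown in DMEM with serum. Cells of both arms received 75 nM siRNA with a lipid reagent for 48 h, either a control siRNA or an siRNA against NAT10. acRIP is immunoprecipitation of RNA with an antibody against N4-acetylcytidine (ac4C), and each list came from 1 immunoprecipitate and 1 input library. Each arm had 1 list, so differences between the lists have no replicate check, and intervals given for counts and shares are 95% exact binomial intervals that cover counting error only. RNA-seq of the same line and arms was used from 2 libraries an arm (replicates 2 and 3; the labels list 1 earlier library an arm, not analysed here), and nothing in the labels says that these came from separate cultures, so p-values measure the spread between these samples, which may be technical.

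NAT10 is the acetyltransferase that makes ac4C. Its long-known substrates are 18S ribosomal RNA and, with the adaptor protein THUMPD1, serine and leucine transfer RNAs, and ac4C has also been reported in messenger RNA, where it is studied for effects on stability and translation. An acRIP peak marks a stretch of RNA with more reads in the immunoprecipitate than in the input, so the number of peaks depends on the depth of both libraries as well as on the mark.

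The siRNAs define the arms, so their sequences are shown as the labels give them, 5′ to 3′, with the 2-base T overhang in capitals. Each is 21 bases long.
control siRNA: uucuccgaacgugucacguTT
NAT10 siRNA: ccaucucucgcaucuauuuTT

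A few peaks also covered microRNA hairpins, short RNA folds inside longer transcripts from which mature microRNAs are cut. Of 1560 hairpins in the RefSeq table for GRCh38.p14, control peaks touched 11 and NAT10-si peaks touched 22, with 9 in both. Peaks held the whole hairpin for 5 in the control list and 14 in the NAT10-si list. The 4 hairpins wholly inside a peak in both lists were MIR10393 in B2M, MIR4647 in SLC35B2, MIR4709 in NPC2 and MIR6805 in RPL28, all within abundant messenger RNAs. In the NAT10-si list 8 hairpins lay wholly inside a peak where the control list had none, and the reverse was seen for 1, MIR3198-2 in CBX5. The mature sequences of the 4 shared hairpins are printed because they are the small RNAs that lie under peaks of both arms, with the seed (bases 2 to 8) in capitals. No seed was shared among them.
hsa-miR-10393-3p: uGGUCAGAuuugaacucuucaa
hsa-miR-10393-5p: aGAAUUCUcuuauccaacaucaaca
hsa-miR-4647: gAAGAUGGugcugugcugaggaa
hsa-miR-4709-3p: uUGAAGAGgaggugcucuguagc
hsa-miR-4709-5p: aCAACAGUgacuugcucuccaa
hsa-miR-6805-3p: uUGCUCUGcucccccgcccccag
hsa-miR-6805-5p: uAGGGGGCggcuuguggagugu

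MIR21, a microRNA often raised in cancers, lies at the end of VMP1. A NAT10-si peak of VMP1 (chr17:59841301-59842255, GRCh38) held 37 of the 72 bases of its hairpin, and its mature strand hsa-miR-21-5p (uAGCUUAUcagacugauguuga, seed in capitals) lay upstream of the edge of that peak.

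Across the 4 RNA libraries, the depth read from the commonest ratio of FPKM values put the other 3 at 0.535, 0.518 and 0.489 of control replicate 2. NAT10, the targeted gene, was at 19.03 and 17.6 FPKM in control and at 4.04 and 3.84 in NAT10-si. The arms did not overlap, and the log2 change was −1.97 ± 0.06 (SE; limma, adjusted p = 0.000111). With 2 libraries an arm, arms also did not overlap in genes past no threshold, such as FLNA (limma adjusted p = 0.134). Of markers of the urothelial lining, 6 of 13 luminal and 2 of 7 basal markers reached a mean of 1 FPKM. Among these the luminal keratins KRT18 and KRT8 were at 85.7 and 85.8 and at 25.9 and 26.1 FPKM in control. The basal markers CD44 and EGFR were at 105.7 and 106 and at 11.99 and 11.4 FPKM in control. The mesenchymal gene VIM was at 672 and 654 FPKM in control and at 458 and 484 in NAT10-si. VIM was the 1 of 5 tested mesenchymal markers that was lower, and 3 were higher (median log2 change of the list 0.28). Over all tested genes, 27.9% were higher and 27.9% lower. The summed level of 8 plasma cell immunoglobulin genes was 0.112 to 1.01 FPKM in control and 14.9 to 65.2 in NAT10-si. That of 8 immune cell markers was 0.904 to 1.04 against 4.0002 to 4.03, with 3 of the 8, PTPRC and MS4A1 among them, listed at 0 in all libraries. The only immune marker tested was LCP1, an actin-bundling protein, which made up most of that sum at 0.837 and 0.848 FPKM in control and 3.70 and 4.02 in NAT10-si. Of these genes, IGHA1 had 1 control peak and 2 immune markers had a NAT10-si peak each. IGHA1 was at 0.154 and 0 FPKM in control, the arm of its peak, and at 18.9 and 4.17 in the NAT10-si libraries. The samples are of 1 cell line, and the source of these reads was not tested. In bulk samples a change in cells of a type and a change in RNA per cell cannot be told apart.

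The NAT10-si list was the longer of the pair, with 1.63 times as many peaks as the control list (interval 1.59 to 1.67). Control peaks lay in 8057 genes and NAT10-si peaks in 11087. Both lists named 6827 genes, 1230 genes were in the control list alone and 4260 in the NAT10-si list alone. This order turned when each list was reduced to its 10253 peaks of lowest p, which left 2325 genes in the control list alone, 1817 in the NAT10-si list alone and 5732 in both. Among the 14004 genes whose mean over the RNA libraries was 1 FPKM or more, 49.6% had a control peak and 64.5% a NAT10-si peak, 43.9% had both, 5.76% a control peak alone and 20.6% a NAT10-si peak alone. The earlier acRIP round gave lists of 685 control peaks (620 genes) and 666 NAT10-si peaks (625 genes).

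The commonest enrichments differed between the lists. The commonest folds, the authors' ratios of immunoprecipitate to input, were 12, 24.1, 36.1 and 48.1 in the control list and 7.02, 14, 21.1 and 28.1 in the NAT10-si list, which are 1, 2, 3 and 4 times a step of each list. These values made up 23.5% of control and 28.8% of NAT10-si peaks. At 2 steps the commonest p was 0.012 in control and 0.037 in NAT10-si, and at 4 steps it was 8.7e-05 and 0.00081. The same number of steps thus came with a different p in each list, and the part of library depth in the list lengths was not tested. The highest p-value the authors kept was 0.04 in control and 0.039 in NAT10-si. At a false discovery rate of 0.05, 8188 control peaks (79.9%) and 13113 NAT10-si peaks (78.3%) remained.

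Most genes in either list had a single peak. This held for 6300 control genes (78.2%) and 7187 NAT10-si genes (64.8%), while 76 and 375 genes had 4 or more. Of the 6827 genes in both lists, 2104 (30.8%) had more peaks in NAT10-si, 569 (8.33%) had fewer and 4154 (60.8%) had the same number. A few rows repeated the interval of another (26 control, 33 NAT10-si), so peaks of a gene are not always separate places.

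Placed on the transcripts, 7575 control peaks (73.9%, interval 73.0 to 74.7) overlapped a NAT10-si peak by at least 1 base, and 7375 NAT10-si peaks (44.0%, interval 43.3 to 44.8) overlapped a control peak. The remainder, 2678 control and 9378 NAT10-si peaks, stood at places found in 1 arm alone. Peaks at places of 1 arm alone sat in genes of lower RNA level, with a median of 4.62 FPKM for control and 4.96 for NAT10-si, against 10.9 and 10.7 for peaks at shared places. Fewer of them passed a false discovery rate of 0.05, 52.8% in control and 66.5% in NAT10-si, against 79.9% and 78.3% of the whole lists.

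Peaks were wider in the NAT10-si list. The median width, summed over the blocks of a peak, was 181 bases in control (quartiles 151 and 270) and 210 in NAT10-si (177 and 330). Peaks over 500 bases numbered 278 in control (2.71%) and 1496 in NAT10-si (8.93%). Peak edges moved in steps of 30 bases, so small differences in width are differences of a step. A peak of several blocks is one that spans gaps, as a peak across a splice junction does. Such peaks made up 15.5% of control (interval 14.8 to 16.2) and 21.7% of NAT10-si (21.1 to 22.3), and peaks of 3 or more blocks 3.32% and 6.54%.

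**Figure D1:**
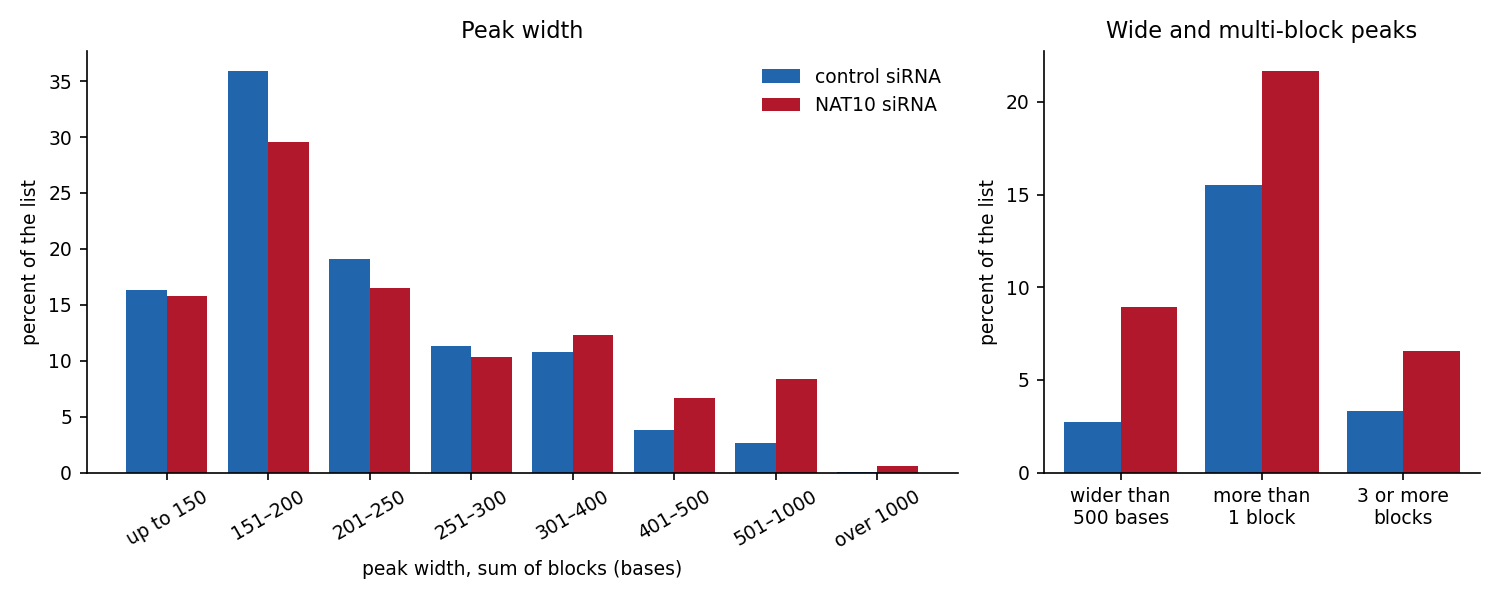
Width and blocks of the peaks in each replicate-round list. Left, percent of the list (y) by peak width in bases (x); right, percent of the list wider than 500 bases, with more than 1 block and with 3 or more blocks; bars are the single control list (blue) and the single NAT10-si list (red), with no error bars. Peaks over 500 bases were 2.71% of control and 8.93% of NAT10-si peaks.

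NAT10-si peaks were also the wider at shared places. In 6409 pairs in which 1 control peak met 1 NAT10-si peak and no other, the median width was 211 bases in control and 288 in NAT10-si. The NAT10-si peak was the wider in 4065 pairs (63.4%) and the narrower in 1204 (18.8%), and 946 pairs (14.8%) had the same interval. At places of 1 arm alone the medians were 179 and 180 bases and the upper quartiles 181 and 240.

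The widest peaks, named here after their values were seen, lay in genes of various kinds. NEAT1, the noncoding RNA that scaffolds nuclear paraspeckles, held the widest of both lists, 1589 bases in control (chr11:65424985-65426573) and 3327 in NAT10-si (chr11:65423247-65426573), which ended at the same base. NEAT1 was at 35.0 and 37.0 FPKM in control and at 85.4 and 88.8 in NAT10-si, with no overlap of the arms (log2 change 1.25, limma adjusted p = 0.000142). Next in control were VMP1, an autophagy membrane protein, at 1345 bases, and further down TUBB, a tubulin, at 1200. In the NAT10-si list the next were LUC7L3, a splicing factor, at 3267 bases in 9 blocks (chr17:50741268-50752767), OGT, the enzyme that adds O-GlcNAc to proteins, at 2992, and HNRNPDL, an RNA-binding protein, at 2544. MAT2A, which makes the methyl donor S-adenosylmethionine, was among the widest in both, at 1287 bases in control and 2513 in NAT10-si.

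Peaks of both lists gathered at the 3′ end of genes. Of 9176 control peaks placed inside a RefSeq gene, 6331 (69.0%, interval 68.0 to 69.9) had their midpoint in the final 10% of the gene, and of 14726 NAT10-si peaks 9037 (61.4%, interval 60.6 to 62.2) did. Within 100 bases of the 3′ end lay 3684 control peaks (39.5%) and 4707 NAT10-si peaks (31.5%). Positions are along the gene with its introns, and which peaks fell in a coding exon or an untranslated region was not analysed here.

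The 5′ end was the rarer place and held a larger share of the NAT10-si list. Within 100 bases of the 5′ end lay 136 control peaks (1.46%) and 478 NAT10-si peaks (3.20%). Among places of 1 arm alone the numbers were 20 (0.842%) and 304 (3.71%). The median distance to the 3′ end was 269 bases in control and 605 in NAT10-si. At places of 1 arm alone, 67.1% of control and 56.3% of NAT10-si peaks were in the final 10%, against 69.7% and 67.5% at shared places. In the first round the final 10% held 27.7% of control and 28.8% of NAT10-si peaks, well below the shares of the replicate round in both arms.

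**Figure D2:**
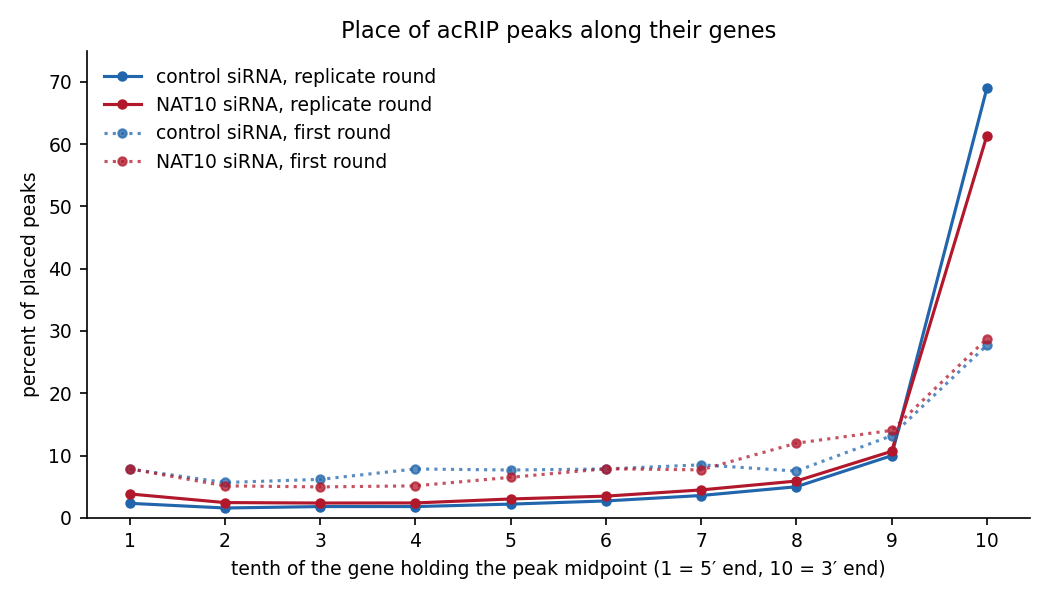
Place of the peaks along their genes. The y axis gives the percent of placed peaks and the x axis the RefSeq gene cut into 10 equal parts from the 5′ end, by the part that holds the peak midpoint; solid lines are the replicate-round lists and dotted lines the first-round lists, 1 list each. The final 10% of the gene held 69.0% of control and 61.4% of NAT10-si peaks in the replicate round and 27.7% and 28.8% in the first.

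On every nuclear chromosome with peaks the NAT10-si list was the longer. The NAT10-si number divided by the control number ranged from 1.40 on chromosome 17 (794 and 1109 peaks) to 2.12 on chromosome 13 (145 and 308). Per 100 tested genes, control peaks ranged from 63.9 on chromosome 13 to 108 on chromosome 17. The mitochondrial genome had 12 peaks in each list, a ratio whose interval, 0.411 to 2.43, holds those of the nuclear chromosomes.

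By gene type the lists were alike. Protein-coding genes held 8667 control peaks (84.5%) and 13818 NAT10-si peaks (82.5%), and long noncoding RNAs 601 (5.86%) and 1115 (6.66%). Of tested coding genes 59.0% had a control peak and 75.3% a NAT10-si peak, while of tested long noncoding RNAs 32.4% and 46.5% did. Genes of snoRNAs, the small RNAs that guide ribosomal RNA modification, held 0 control and 3 NAT10-si peaks.

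The share of genes with a peak followed RNA level in both arms. From 1 to 3 FPKM, 25.7% of genes had a control peak and 42.3% a NAT10-si peak. From 10 to 30 FPKM these were 65.5% and 78.3%, and at 100 FPKM or more 88.9% and 90%, so that the lists named nearly the same share of the most abundant transcripts. Genes with a NAT10-si peak alone were commonest from 3 to 10 FPKM, at 24.7%, and fell to 2.29% at 100 FPKM or more.

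**Figure D3:**
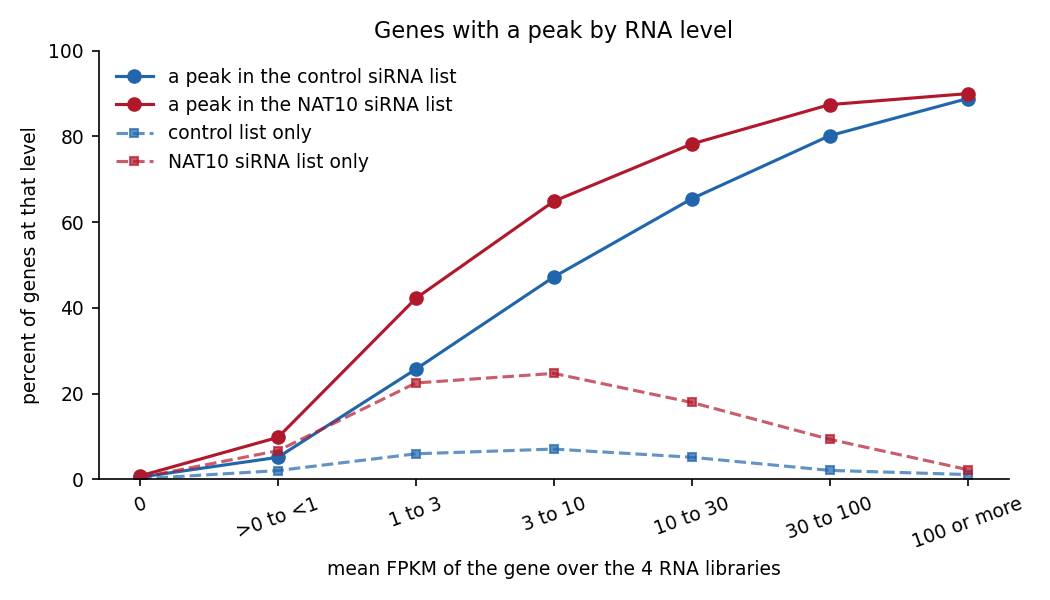
Genes with a peak by RNA level. The x axis gives the mean FPKM of a gene over the 4 RNA libraries and the y axis the percent of genes at that level; solid lines show genes with a peak in the control (blue) or NAT10-si (red) list and dashed lines genes in that list alone. From 1 to 3 FPKM the shares were 25.7% and 42.3%, and at 100 FPKM or more 88.9% and 90%.

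Peaks also lay in genes with little or no listed RNA. Genes under 1 FPKM held 1232 control peaks (12.02%) and 2500 NAT10-si peaks (14.9%). Genes listed at 0 FPKM in all 4 libraries included 136 with a control peak and 211 with a NAT10-si peak, 100 of them shared. EEF1G, a subunit of translation elongation factor 1, was listed at 0 in each library and had 1 peak in each list. Its level, and that of EIF4A1, an RNA helicase of translation initiation with 5 control and 3 NAT10-si peaks, are uncertain. Peaks named for another gene model, SENP3-EIF4A1, lay within EIF4A1. Whether overlapping gene models took reads of either gene was not tested.

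The RNA of peak genes was compared by limma on log2(FPKM + 1), so folds of low genes are understated. Of the 14004 genes tested, 55.8% passed an adjusted p of 0.05, 27.9% higher and 27.9% lower in NAT10-si. Genes with a control peak alone were more often lower. Of 806 tested, 340 (42.2%) were lower and 113 (14.02%) higher, with a median log2 change of −0.18 (quartiles −0.41 and 0.10). Genes with a NAT10-si peak alone leaned the other way. Of 2889 tested, 904 (31.3%) were higher and 645 (22.3%) lower, with a median of 0.06. Genes with peaks in both lists were close to all genes, with 1945 of 6144 (31.7%) higher, 1854 (30.2%) lower and a median of 0.01.

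The median of genes with a control peak alone was below 0 at each RNA level, at −0.15 from 1 to 3 FPKM, −0.16 from 3 to 10, −0.24 from 10 to 30 and −0.25 from 30 to 100, the last over 25 genes. That of genes with a NAT10-si peak alone was 0.12 and 0.05 at the lower 2 of these levels and −0.01 and −0.05 at the higher 2. Tested genes with no peak had medians of 0.07, −0.05, −0.11 and −0.14 at the same levels in turn, so the medians of both classes stand beside a shift with RNA level. Read the other way, of genes lower in NAT10-si 8.69% had a control peak alone and 16.5% a NAT10-si peak alone, and of genes higher in NAT10-si 2.89% and 23.2% did. Among the 422 genes higher by at least 1 on the log2 scale, 29.9% had a control peak and 52.4% a NAT10-si peak. Among the 213 genes lower by at least 1 the shares were 47.4% and 44.1%, the group in which the control list named more genes than the NAT10-si list. Taken over all levels, genes whose peaks were in a single arm thus more often had higher than lower RNA there. For a NAT10-si peak alone the counts were near even at higher levels, 200 higher and 198 lower from 10 to 30 FPKM and 34 and 36 from 30 to 100. From these lists a change of the mark per transcript and a change of the transcript cannot be told apart.

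**Figure D4:**
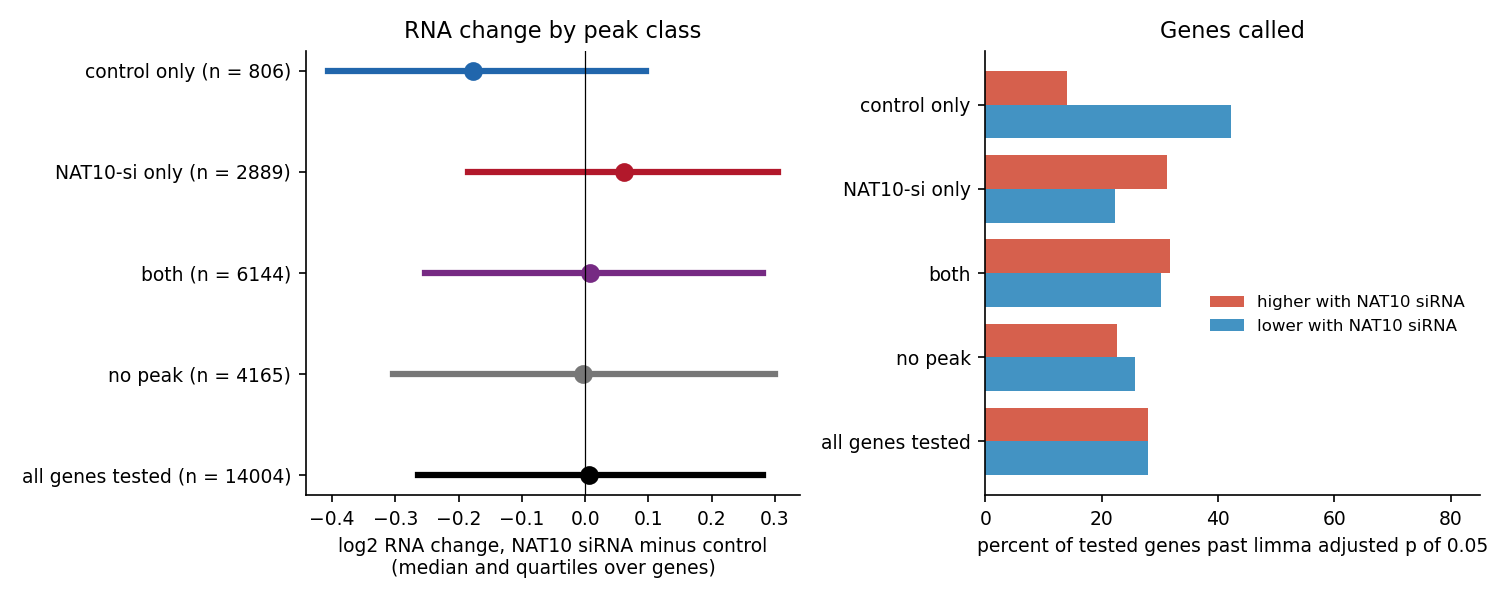
RNA change of genes by the list that holds their peaks. Left, median (point) and quartiles (bar) over genes of the log2 change, NAT10-si minus control, on log2(FPKM + 1); right, percent of tested genes past a limma adjusted p of 0.05, higher (red) or lower (blue). Genes with a control peak alone had a median of −0.18, with 42.2% lower and 14.02% higher.

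The NAT10 transcript and the genes reported as its targets came first among named genes. NAT10 had no control peak and 2 overlapping NAT10-si peaks near its 3′ end (chr11:34146463-34146761 and chr11:34146750-34146900), although its RNA was lower in that arm. THUMPD1, the adaptor for transfer RNA, had no peak in either list and was at 5.30 and 5.79 FPKM in control and at 2.31 and 2.22 in NAT10-si (log2 change −1.002, limma adjusted p = 0.000437).

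Of 4 genes reported as ac4C targets in bladder cancer, 3 had peaks in both lists. AKT1, the growth and survival kinase, had the same interval of 270 bases in both (chr14:104769349-104769618). Its RNA was at 18.4 and 17.2 FPKM in control and at 14.7 and 15.5 in NAT10-si, a log2 change of −0.22 (limma adjusted p = 0.0223). Without control replicate 2 the change was −0.18 (limma adjusted p = 0.109) and without NAT10-si replicate 2 it was −0.19 (limma adjusted p = 0.0928). BCL9L, a coactivator of Wnt signalling, had 1 control peak of 331 bases (chr11:118896125-118896455) and 2 NAT10-si peaks, of which chr11:118896155-118896605 overlapped it. AHNAK, a giant scaffold protein, had 1 control peak of 541 bases and 3 NAT10-si peaks, the widest 1441 bases, and its RNA was at 105 and 96.2 FPKM in control against 66.9 and 60.2 in NAT10-si (log2 change −0.66, limma adjusted p = 0.00129). BCL9L was at 19.6 and 17.8 FPKM against 17.2 and 16.2 (log2 change −0.15, limma adjusted p = 0.097). SOX4, a developmental transcription factor, had no peak in either list and was at 1.17 and 1.34 FPKM in control and 2.16 and 1.69 in NAT10-si (log2 change 0.37, limma adjusted p = 0.0439). That call was lost when either control library (limma adjusted p = 0.182 without replicate 2 and 0.0996 without replicate 3) or NAT10-si replicate 2 (limma adjusted p = 0.144) was left out and with the replicate block (limma adjusted p = 0.0757). None of the 3 targets with peaks lost them in the NAT10-si list. Most genes kept theirs, since 6144 of the 6950 tested genes with a control peak also had a NAT10-si peak.

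Genes of the cytosolic ribosomal subunits, the nuclear respiratory chain genes and the translation factors carried peaks in nearly full in both lists. All 32 small and all 46 large ribosomal subunit protein genes had a peak in each arm, with 77 and 125 peaks in control and 92 and 147 in NAT10-si. All 44 nuclear genes of the respiratory chain did too, with 64 and 88 peaks. At their RNA levels, 88.9% and 90% of all genes had a peak for the ribosomal lists, and 80.2% and 87.4% for the respiratory one. Of the 15 mitochondrially encoded genes, 10 (66.7%) had a control peak and 11 (73.3%) a NAT10-si peak. Their median of 2653 FPKM was above the 231 and 197 of the ribosomal lists, all within the class of 100 FPKM or more. The mitochondrial ribosomal RNAs MT-RNR1 and MT-RNR2 had none in either list, at 653 and 647 FPKM for MT-RNR1 in control and 1429 and 1657 in NAT10-si. Of 34 translation factors, 32 (94.1%) and 33 (97.1%) had a peak, against 80.2% and 87.4% of all genes at that level. Of 40 ribosome biogenesis genes 27 (67.5%) and 34 (85%) did, against 65.5% and 78.3%. In RNA, 36 of the 40 were lower and 1 higher, against 27.9% of all tested genes in each direction.

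DNA repair, which the series title names, was divided by pathway. Of 34 genes of homologous recombination and crosslink repair, 21 had a control peak and 24 a NAT10-si peak (61.8% and 70.6%), and of 26 in end joining and damage signalling, 17 and 20 (65.4% and 76.9%), both against 47.2% and 64.9% of all genes at that level. In excision and mismatch repair fewer genes had a NAT10-si than a control peak, 23 of 36 in control (63.9%) and 21 in NAT10-si (58.3%), against the same 47.2% and 64.9%. Its 8 genes with a control peak alone were RPA1, RPA2, RPA3, LIG1, DDB1, MUTYH, CETN2 and MLH3. In RNA, 26 of 34, 17 of 26 and 20 of 36 genes of these lists were lower and 2, 1 and 5 higher, against 27.9% of all tested genes in each direction.

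The 3 subunits of replication protein A, which coats single-stranded DNA, thus all had control peaks and no NAT10-si peak. RPA1 was at 39.3 and 39.0 FPKM in control and at 19.1 and 19.8 in NAT10-si (log2 change −0.97, limma adjusted p = 0.000168), with its peak at chr17:1897724-1898023. RPA2 was at 21.1 and 23.2 against 14.1 and 13.5 (log2 change −0.64, limma adjusted p = 0.000918), with its peak 30 bases from the gene end. RPA3 was at 5.74 and 5.64 against 5.29 and 4.81, and its log2 change of −0.15 missed the threshold (limma adjusted p = 0.111). RNA was therefore lower beyond the replicate spread for RPA1 and RPA2. These genes, and the other list members described singly below by their peaks alone in 1 arm, were chosen after their values were seen.

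Replication and mitosis genes were lower in RNA, and most had a peak in both lists, as did most genes at their RNA level. Of 37 DNA replication genes, 28 (75.7%) had a control peak and 30 (81.1%) a NAT10-si peak, 24 of them both. All genes at that RNA level had 65.5% and 78.3%, and 2039 of those 3381 genes had both. In RNA, 36 of the 37 were lower with none higher. The replication genes with a control peak alone were MCM6, a subunit of the replicative helicase, ORC1, which marks origins, and the helicase cofactors GINS2 and GINS3. MCM6 was at 27.3 and 28.3 FPKM in control and 13.8 and 13.7 in NAT10-si (log2 change −0.97, limma adjusted p = 0.000185). Of 30 mitosis genes, 24 (80%) and 25 (83.3%) had a peak, 20 of them in both lists and at the same background, and 30 were lower in RNA. Beside these replication and mitosis counts, 27.9% of all tested genes were lower. CDC20, KIF11, NDC80 and CDC25C had a control peak alone. KIF11, the spindle motor, was at 34.4 and 35.7 FPKM in control and 11.8 and 11.4 in NAT10-si (log2 change −1.52, limma adjusted p = 0.000111).

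Histone genes showed the widest gap between the arms among the 27 pathway lists. Of 22 tested replication-dependent histone genes, 2 had a control peak (9.09%) and 12 a NAT10-si peak (54.5%), where all genes at that RNA level went from 47.2% to 64.9%. The filter and that level use the mean over both arms, so some members owe their level mainly to NAT10-si. H2BC21, H3C10 and H2BC9 had control means of 1.12, 1.44 and 1.06 FPKM. From 1 to 3 FPKM, 25.7% of all genes had a control peak, so the control background is too high for such members. The list held 3 control and 21 NAT10-si peaks. RNA was higher for 20 of the 22 and lower for none, against 27.9% of all tested genes in each direction. The summed level was 57.2 to 58.4 FPKM in control and 238 to 255 in NAT10-si. H2AC6 and H2BC9 were the members with a control peak. Many members are near-identical copies, so their values are uncertain. Messenger RNAs of this family normally end in a stem-loop without a poly(A) tail. None of the 3 control peaks and 8 of the 21 NAT10-si peaks had their midpoint inside the RefSeq gene.

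H2BC21, an H2B gene, was at 1.11 and 1.14 FPKM in control and at 27.0 and 27.7 in NAT10-si, the arms far apart (log2 change 3.74, limma adjusted p = 5.4e-05). It had no control peak and 2 NAT10-si peaks, of which chr1:149884459-149884904 was 446 bases wide. H3C10 was at 1.35 and 1.53 against 14.3 and 15.3 FPKM (log2 change 2.69), and its NAT10-si peak at chr6:27810711-27811300 lay beyond the end of the RefSeq gene at 27810536. H2BC5 was at 5.49 and 6.68 against 26.8 and 30.4 FPKM (log2 change 2.06, limma adjusted p = 0.000211), with 1 NAT10-si peak in 2 blocks (chr6:26158146-26171146).

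Stress and early-response genes had both more peaks and more RNA in NAT10-si. Of 26 stress response genes, 18 (69.2%) had a control peak and 24 (92.3%) a NAT10-si peak, where all genes at that level had 65.5% and 78.3%, with 20 and 41 peaks, and 18 were higher in RNA and 1 lower. ATF3, VLDLR, SLC7A11, HERPUD1, DNAJB9 and ERN1 had a NAT10-si peak alone. Of 29 NF-kB target and early-response genes, 17 (58.6%) and 26 (89.7%) had a peak, where all genes at that level went from 65.5% to 78.3%. In RNA, 24 were higher and 2 lower. Beside the RNA counts of these stress and early-response lists, 27.9% of all tested genes were higher and 27.9% lower. NFKBIA, the inhibitor of NF-kB, was at 19.99 and 18.7 FPKM in control and 50.7 and 52.8 in NAT10-si (log2 change 1.37), with 1 NAT10-si peak at its 3′ end (chr14:35401511-35401867). EGR1, an immediate-early transcription factor, was at 7.90 and 7.57 against 38.2 and 40.4 FPKM (log2 change 2.21, limma adjusted p = 6.0e-05) and had 0 control and 4 NAT10-si peaks. FOS, another, was at 2.25 and 2.08 against 12.9 and 10.7 FPKM (log2 change 2.02) and had 0 and 2. The peaks of both thus stood in the arm with more of their RNA.

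All 20 heat shock and chaperonin genes had a NAT10-si peak and 16 (80%) a control peak, where all genes at that RNA level had 87.4% and 80.2%. The 4 with a NAT10-si peak alone were HSPA1A, HSPA1B, DNAJB1 and HSPH1, all of cytosolic refolding. HSPA1B was at 11.5 and 11.6 FPKM in control and 75.7 and 80.9 in NAT10-si (log2 change 2.66, limma adjusted p = 5.6e-05). HSPA1A and HSPA1B are near-identical copies, so the split of their reads and peaks is uncertain. In RNA the list was mostly lower, with 13 lower and 6 higher, against 27.9% of all tested genes in each direction.

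Among other lists, 27 of 30 cytoskeleton genes (90%) had a control peak and 30 a NAT10-si peak, where all genes at that RNA level had 88.9% and 90%. Of 27 proteasome genes, 25 (92.6%) and 27 did, against 80.2% and 87.4%. Of 32 interferon-stimulated genes, 26 (81.3%) and 28 (87.5%) had a peak, and of 25 extracellular matrix and adhesion genes 18 (72%) and 21 (84%), both against 65.5% and 78.3%. Glycolysis was the other pathway list with fewer genes in NAT10-si, 18 of 19 (94.7%) in control and 17 (89.5%) in NAT10-si, against 80.2% and 87.4%. Of 14 long noncoding RNAs, 7 (50%) and 11 (78.6%) had a peak, against 47.2% and 64.9%, with 13 and 37 peaks over the list's 25 members. Of 23 snoRNA host genes, 20 (87.0%) and 22 (95.7%) did, against 65.5% and 78.3%, with 34 and 51 peaks.

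**Figure D5:**
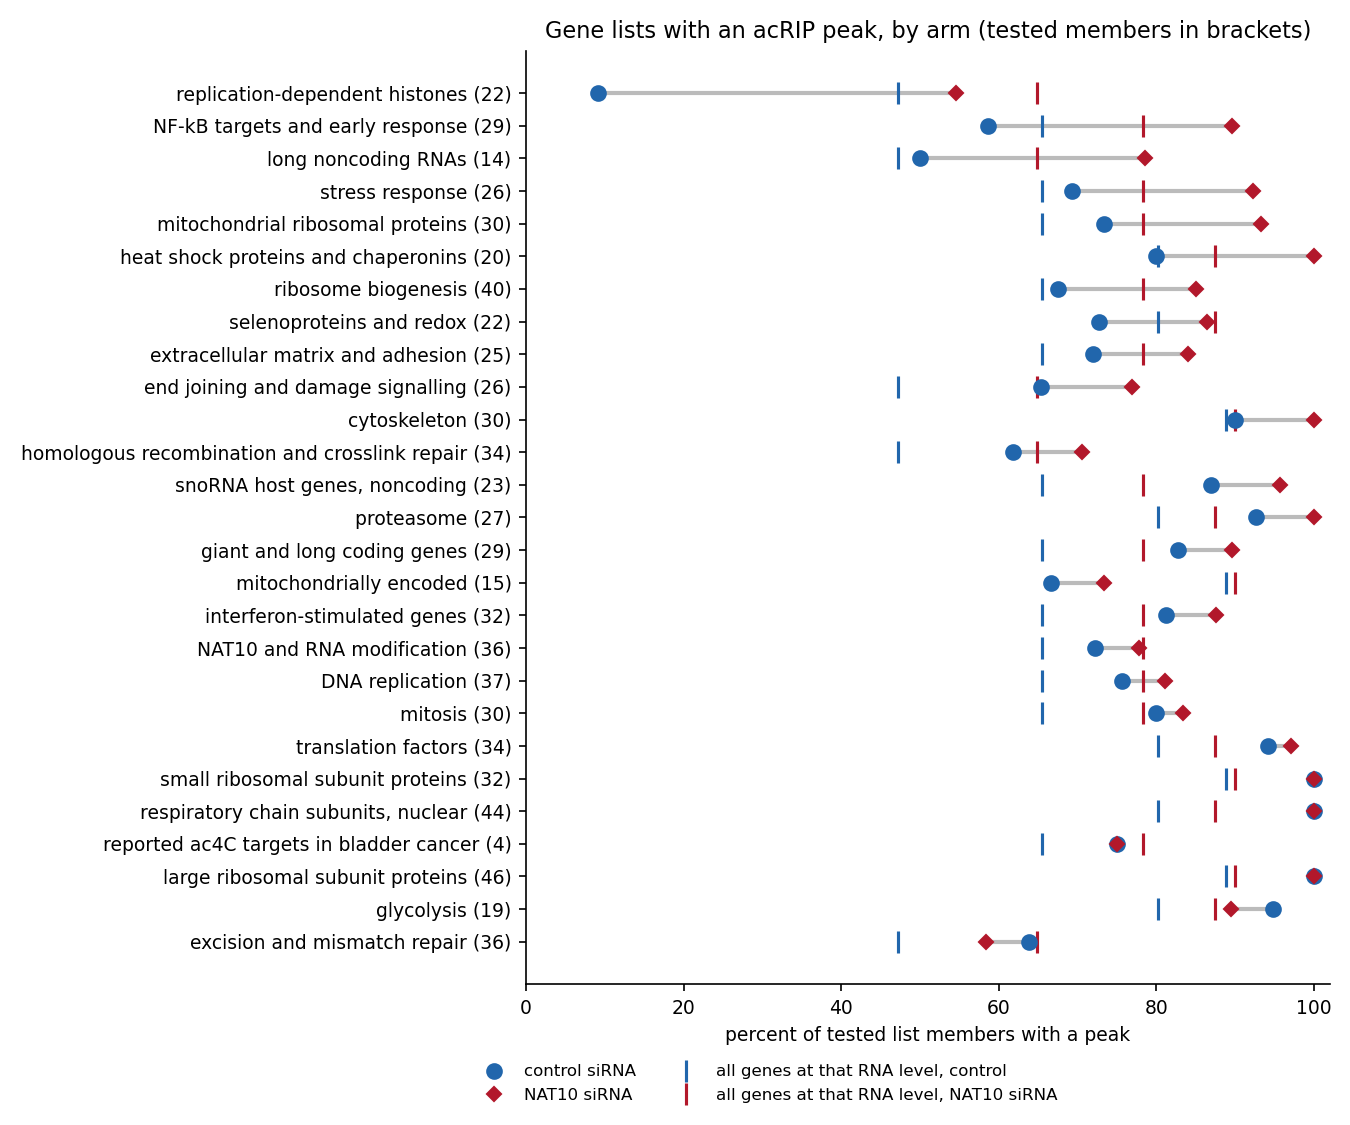
Percent of tested members of each gene list with a peak (x) by list (y), in the control list (blue circles) and the NAT10-si list (red diamonds); ticks mark the share of all genes at the RNA level of the list's median. Replication-dependent histones went from 9.09% to 54.5%, and excision and mismatch repair from 63.9% to 58.3%.

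Named by the lowest p among genes with a control peak alone, 7 of 8 genes were lower in RNA. Over all tested genes with a control peak alone, 42.2% were lower. CDC20, an activator of the anaphase-promoting complex, was at 212 and 208 FPKM in control and 126 and 129 in NAT10-si (log2 change −0.72, limma adjusted p = 0.000224). Its control peak of 331 bases ended at the last base of the gene (chr1:43362235-43363203), and the authors gave it a fold of 28.9. BAG3, a cochaperone of HSP70, was at 81.4 and 77.1 against 59.6 and 65.9 FPKM (log2 change −0.33, limma adjusted p = 0.00756), with its peak at chr10:119677521-119677789. GMPS, which makes guanosine monophosphate, was at 26.4 and 27.2 against 19.1 and 18.6 FPKM (log2 change −0.49). The groups did not overlap in any of these, nor in MRPS26, given next, which missed the threshold. Non-overlap therefore sets these genes little apart, and its share over all tested genes is not given here. COG4, LRRC47, RSL1D1 and UBE2G1 fell by 0.25, 0.42, 0.46 and 0.84 on the log2 scale, and MRPS26, a mitochondrial ribosomal protein, had −0.07 (limma adjusted p = 0.265).

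Of the 8 genes the same rule named in the NAT10-si list alone, 6 were higher in RNA, 1 (HNRNPD) was lower and 1 did not pass. Over all tested genes with a NAT10-si peak alone, 31.3% were higher and 22.3% lower. MALAT1, an abundant nuclear noncoding RNA, was at 48.4 and 51.9 FPKM in control and 111 and 116 in NAT10-si (log2 change 1.17, limma adjusted p = 0.000172). It had 7 NAT10-si rows at 4 places, and the one at its 3′ end (chr11:65506186-65506516) had a fold of 112. GADD45A, a growth arrest gene, was at 51.1 and 49.8 against 148 and 159 FPKM (log2 change 1.59), with 1 peak of 600 bases (chr1:67687679-67688278). LINC-PINT, a noncoding RNA of the p53 response, was at 1.60 and 1.59 against 9.76 and 11.6 FPKM (log2 change 2.17) and had 4 peaks. HNRNPD, an RNA-binding protein of unstable messages, went the other way in RNA, at 49.7 and 49.9 against 37.2 and 38.0 FPKM (log2 change −0.39, limma adjusted p = 0.00103), and had 5 NAT10-si peaks and none in control. ARMCX3 had 3 NAT10-si peaks and a log2 change of 0.88.

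By number of peaks, TPM1, the actin-binding tropomyosin, had 10 NAT10-si and 4 control peaks, the shared 3′ peak growing from chr15:63071466-63071915 to chr15:63071286-63071915 with the same end. CMC1 and FAHD2A had 0 and 6, and MRPS25 and MMP25-AS1 1 and 7. The largest excess in the control list was smaller, 4 and 0 in LINC00926, 3 and 0 in BRD3OS, CNIH1, FAM78A and INSR, and 4 and 1 in C19orf12. VMP1 had the most control peaks, 7 against 4 in NAT10-si.

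Some genes with peaks in both lists showed widening beside new places. Of all 6827 such genes, 30.8% had more peaks in NAT10-si, 8.33% fewer and 60.8% the same number. In the 6409 pairs of 1 peak an arm, the NAT10-si peak was the wider in 63.4% and the narrower in 18.8%. HSPA5, the main chaperone of the endoplasmic reticulum, was at 249 and 255 FPKM in control and 736 and 745 in NAT10-si (log2 change 1.55, limma adjusted p = 6.0e-05). It had 1 control peak of 419 bases, which overlapped a NAT10-si peak of 1045 bases (chr9:125236195-125238225), and 3 NAT10-si peaks in all. B2M, the light chain of MHC class I, was at 80.7 and 85.1 against 180 and 179 FPKM (log2 change 1.11, limma adjusted p = 0.000142). Its 3′ peak was 361 bases wide in control and 990 in NAT10-si, and 1 of its 4 further NAT10-si peaks spanned its 5′ end (chr15:44711477-44712876, 3 blocks). CD44, a cell adhesion receptor, had 1 control and 5 NAT10-si peaks at nearly level RNA, 105.7 and 106 FPKM against 104 and 102.9 (log2 change −0.03, limma adjusted p = 0.467). VIM, with lower RNA in NAT10-si, had 3 control and 6 NAT10-si peaks.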

How the data were processed

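The expression values the authors deposited were taken to be FPKM (reads scaled for gene length and depth) from the values themselves, since no header gives a unit. Tools listed in the submitters' processing notes were HISAT2 2.1.0, HTSeq 0.6.1 and bcl2fastq 2.19.1, with the build hg19. Peak coordinates matched GRCh38 RefSeq genes instead (98.0% of control and 97.5% of NAT10-si peaks with an entry overlapped their gene). For every peak the authors deposited a fold enrichment, which is a ratio of immunoprecipitate to input, and a p-value, per the file headers. The 2 further deposited scores are log10 forms of the p-value and false discovery rate. The sources used here name no peak caller. RNA was tested with limma 3.58.1 (R 4.3.3) on log2(FPKM + 1), without a block, over 14004 genes averaging 1 FPKM or more, Benjamini-Hochberg threshold 0.05, a fit checked on simulated data. Overlap needed 1 base on the same strand. Genes were named as the targeted gene and reported targets, those with the most peaks (8 an arm), the largest excess (6), the highest folds (8), the authors' lowest p among genes with a peak in 1 arm alone and a mean of 3 FPKM or more (8), and list members by p (5); others are said to be chosen after their values were seen, and not every gene the rule names is reported here. The members and lists were chosen with earlier results of these data known. Same-numbered libraries were not shown to pair (correlation of deviations 0.0125 over 14004 genes). Sequence motifs and exon positions were not analysed here.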

Additional observations from a re-analysis of the deposited data

Results flagged for a closer look

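The NAT10-si to control ratio of peak numbers lay on opposite sides of 1 in the 2 rounds of acRIP, at 0.972 in the first round (666 and 685 peaks) and at 1.63 in the replicate round (16753 and 10253 peaks). Each round had 1 list an arm, so the difference was not tested. The rounds also differed in the weakest peaks kept, with a highest p of 0.001 in control and 0.0005 in NAT10-si in the first round against 0.04 and 0.039 in the replicate round.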

How the results depend on the processing

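With 1 list per arm, the peak counts carry no biological error, and the depth of the immunoprecipitates and inputs limits what each list could call. Peak numbers in NAT10-si were 1.63 times those in control, and this factor was 1.51 at a false discovery rate of 0.01, 1.58 in genes of at least 1 FPKM, 1.38 for genes and 1.93 for covered bases. Control peaks overlapped, 73.9%, were 70.2% with 50% of the bases required, 79.3% at a false discovery rate of 0.05, 62.6% in lists of equal length and 65.7% for peaks of 1 block; NAT10-si peaks overlapped, 44.0%, were 35.1%, 48.3%, 60.1% and 42.5%. Genes in the control list alone were 2325 in lists of equal length and 806 at 1 FPKM or more, and in the NAT10-si list alone 1817 in lists of equal length. At a false discovery rate of 0.05, median widths were 211 and 241 bases and peaks of several blocks 16.9% and 24.7%; at places of 1 arm alone these were 179 and 180 bases and 11.1% and 20.7%, with 67.1% and 56.3% in the final 10% of the gene. In lists of equal length the NAT10-si values were 271 bases, 27.5% and 60.0%.

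The median log2 change of genes with a control peak alone was −0.22 with a pseudocount of 0.1, −0.079 without the filter on low values and −0.14 in lists of equal length. For genes with a NAT10-si peak alone it was 0.072, 0.080 at a false discovery rate of 0.05, 0.10 in lists of equal length and 0.046 to 0.069 with 1 library left out; for genes in both it was 0.025 in lists of equal length, and for genes without a peak −0.029 to 0.013 with 1 library left out. Directions held for the first 2 classes, and the cause of these shifts was not tested. Genes called higher and lower, 3904 and 3911, were 3874 and 3895 with a pseudocount of 0.1, 3166 and 3043 without the filter, 3066 and 3443 with a filter at 3, 3677 and 4078 after quantile normalisation, and 2812 to 3339 and 2750 to 3438 with 1 library left out. With the replicate block they were 3664 and 3630, and 8 of 218 tested named genes lost their call. Of these 218, 31 lost it without the filter, 8 after quantile normalisation, and 29, 26, 17 and 18 without control replicates 2 and 3 and NAT10-si replicates 2 and 3; none of the 218 reversed in the settings run.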
